A study of Homo sapiens with 18 samples.

Results

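The genes described here are 9 genes of the immunoproteasome and of MHC class I antigen presentation, of 20033 protein-coding genes in the annotation. They are the inducible catalytic subunits PSMB8, PSMB9 and PSMB10, the activator subunits PSME1 and PSME2, the peptide transporter subunit TAP1, the loading factor TAPBP, the light chain B2M and the heavy chain HLA-B. They were chosen by name. Each was followed through the intervals that overlapped 2 kb on either side of one of its annotated transcript starts, and the interval with the highest mean count over the 4 libraries of a modification represented it. The assay was Cut&Tag, which tethers the Tn5 transposase through an antibody to a histone modification and sequences the DNA that the enzyme cuts there. It was run on MOLM-13, an established cell line from a human acute myeloid leukemia that carries a KMT2A::MLLT3 fusion. Cells received 100 nM PR-957, also called ONX-0914, or the diluent DMSO for 72 h. PR-957 is an inhibitor of the immunoproteasome that acts mainly on the protein product of PSMB8. Every group is this one cell line, and each modification has 2 DMSO and 2 PR-957 libraries. The comparison asks whether the modifications at the genes of the inhibited complex and of its pathway differ between inhibitor and diluent.

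The immunoproteasome is a form of the proteasome in which PSMB8, PSMB9 and PSMB10 take the places of the constitutive catalytic subunits PSMB5, PSMB6 and PSMB7. It is present in blood cells without stimulation and is induced in other cells by interferon gamma, through the IRF family and, for the class I genes, NLRC5. The peptides it cuts are carried into the endoplasmic reticulum by TAP1 with TAP2 and are loaded with the help of TAPBP onto heavy chains paired with B2M. H3K4me3 and H3K27ac mark active promoters, H3K27ac also marks active enhancers, H3K4me1 marks enhancers and promoter flanks, and H3K27me3 is the repressive mark of Polycomb.

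Promoters of most of these genes hold a match to the letters of the interferon element, whose activity was not measured here. Promoter windows of 250 bases before to 50 bases after the RefSeq start were read for all 9 genes (11 windows, build GRCh38.p14) and searched on both strands. The IRF core, made of 2 copies of GAAA with any 2 bases between them, was found for 7 of the 9 genes, whereas 3.57% of the 35116 windows in the whole table held it. The first is a count of genes and the second a share of windows. PSMB8 and TAP1 had 2 windows each, of which 1 held the core. The stretches below are written on the strand of the gene, with the matched letters in capitals and 10 bases on either side. A match in capitals that begins with TTTC lies on the opposite strand, and where matches overlap both are capitalised.

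PSMB8, chr6:32844032-32844061, minus strand: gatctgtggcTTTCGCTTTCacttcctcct
PSMB10, chr16:67936852-67936881, minus strand: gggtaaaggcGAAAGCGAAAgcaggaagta
PSME1, chr14:24136189-24136218, plus strand: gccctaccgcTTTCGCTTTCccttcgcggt
PSME2, chr14:24146619-24146648, minus strand: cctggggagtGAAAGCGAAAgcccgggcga
TAP1, chr6:32853813-32853848, minus strand: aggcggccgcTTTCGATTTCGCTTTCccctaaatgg
TAPBP, chr6:33314073-33314108, minus strand: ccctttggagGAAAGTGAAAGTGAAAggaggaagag
B2M, chr15:44711363-44711398, plus strand: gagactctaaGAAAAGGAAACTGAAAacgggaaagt

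The PSMB8, PSMB10, PSME1 and PSME2 matches were single copies of the core, with the letters GAAAGCGAAA on one strand or the other. TAP1, TAPBP and B2M each held 2 overlapping copies. The windows of PSMB9 and HLA-B held no match to these letters. Of the other motifs searched, the GAS motif TTCNNNGAA (7.66% of all windows) was found for PSMB8 and TAP1. The NF-kB motif GGGNNTTCC (6.58%) was found for PSMB8, TAPBP, B2M and HLA-B. The full CRE TGACGTCA (1.85%) was found for none, and the shorter form TGACGT (7.98%), which is the start of the full CRE, was found for PSMB8. The inverted CCAAT box ATTGG (34.6%) was found for PSMB9, TAP1, B2M and HLA-B. The GC box GGGCGG (45.0%) was found for 6 genes, all but PSMB10, B2M and HLA-B. PSMB10 held the IRF core and none of the other motifs.

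Total counts per library, summed over the listed intervals, were 9885836 to 14165777 for H3K27ac and 10032503 to 12047958 for H3K27me3. They were 15204186 to 30584219 for H3K4me1 and 30070119 to 44591150 for H3K4me3. The files list 74559, 33437, 108165 and 59230 intervals for these modifications. The defining markers of the labelled cell type were present, with 10 of 10 myeloid leukemia genes listed in H3K27ac and H3K4me1 and 9 of 10 in H3K4me3, all but MPO. Genes that mark other cell types were also listed, among them 4 of 5 B cell genes and 1 of 5 T cell genes in H3K27ac. The remaining sets in H3K27ac had 1 of 5 epithelial, 0 of 4 erythroid and 0 of 4 fibroblast genes. In H3K27me3, 4 of 4 fibroblast and 4 of 5 epithelial genes were listed. There, 2 of 10 myeloid leukemia genes, HOXA9 and MEIS1, 1 of 5 B cell, 1 of 4 erythroid and 0 of 5 T cell genes were listed. In H3K4me3, 4 of 5 epithelial and 3 of 4 fibroblast genes were listed, against 0 of 5 T cell genes. In H3K4me1, 3 of 4 fibroblast genes were listed, against 2 of 5 T cell genes. A listed interval alone therefore does not tell the cell type.

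PSMB10 was the only one of the 9 genes with a listed interval in any modification. Its start lay inside 4 overlapping intervals in H3K27ac and 4 in H3K4me3, and all of them passed the filter on low counts. The other 8 genes had no listed interval within 2 kb of any annotated start in any of the 4 modifications. A gene without a listed interval has no count here, so neither its level nor its response to PR-957 was measured, and the lack of an interval does not show that the modification was absent. For comparison, 12094 of the 20033 protein-coding genes were listed in H3K27ac, 3976 in H3K27me3, 8702 in H3K4me1 and 12795 in H3K4me3.

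**Figure D1:**
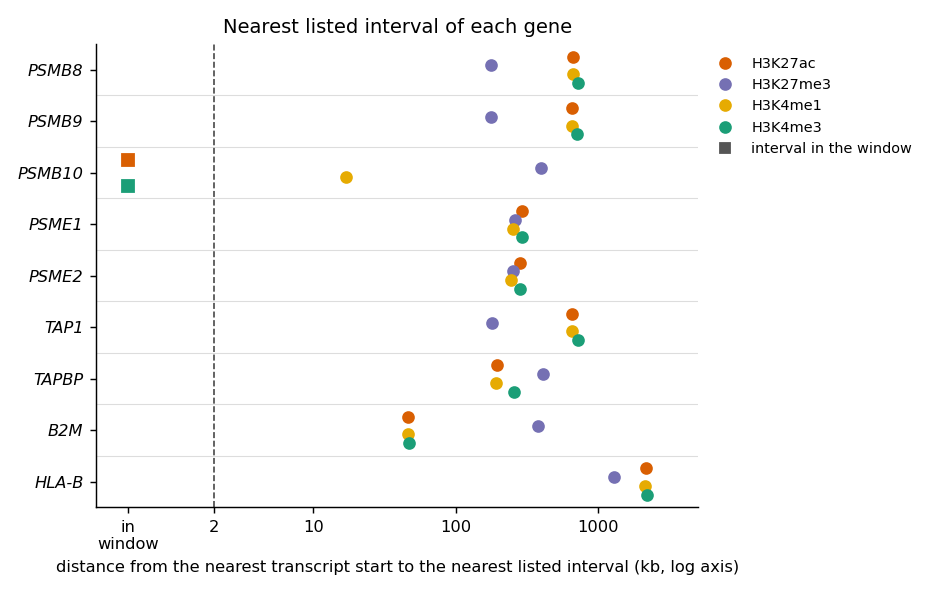
Distance in kb (log axis) from the nearest annotated transcript start of each gene to the nearest listed interval, for the 4 modifications. Squares at the left stand for an interval inside the window of 2 kb (dashed line), which was found for PSMB10 in H3K27ac and H3K4me3, and the circles of the other 8 genes lie at 46.1 kb or farther.

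The catalytic subunit genes PSMB8 and PSMB9 and the transporter gene TAP1 are neighbours on chromosome 6 (hg38), where PSMB8 (ENSG00000204264.12) spans 32840717 to 32844679 on the minus strand. The interval nearest to PSMB8 was 663060 bp away in H3K27ac, 661574 bp in H3K4me1, 724650 bp in H3K4me3 and 175618 bp in H3K27me3. PSMB9 (ENSG00000240065.8, 32844136 to 32859851, plus strand) lay 651642 bp from the nearest H3K27ac interval and 713232 bp from the nearest H3K4me3 interval. TAP1 (ENSG00000168394.13, 32845209 to 32853816, minus strand) lay 653923 bp and 715513 bp from them. In H3K27me3 the distances were 175819 bp for PSMB9 and 179913 bp for TAP1. All 3 genes therefore shared the same nearest intervals. The H3K27ac one, at chr6:33507739-33509607, held 32 and 33 counts in DMSO and 34 and 40 in PR-957. The H3K27me3 one, at chr6:32664758-32668317, lies at a start of the class II gene HLA-DQB1 and held 50 and 54 counts in DMSO and 70 and 105 in PR-957. Neither passed the threshold in edgeR's quasi-likelihood test with Benjamini-Hochberg adjustment (adjusted p = 0.976 and 0.236).

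TAPBP (ENSG00000231925.14, chr6:33299694-33314284, minus strand), which bridges the transporter and the heavy chain, was the chromosome 6 member closest to a listed interval of an active mark. Its distances were 193455 bp in H3K27ac, 191969 bp in H3K4me1, 255045 bp in H3K4me3 and 407319 bp in H3K27me3. HLA-B (ENSG00000234745.14, chr6:31353872-31367067, minus strand), the heavy chain that presents the peptide, was the farthest of the 9 genes from an interval in every modification. It lay 2140672 bp from the nearest H3K27ac interval, 2139186 bp from H3K4me1, 2202262 bp from H3K4me3 and 1296847 bp from H3K27me3.

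The 5 chromosome 6 members lay in 1 stretch, chr6:28492375-33506253, in which none of the 3 active modifications had a listed interval. The stretch measured 5.01 Mb and held the starts of 183 protein-coding genes, among them HLA-C, HLA-E, HLA-F, HLA-G and TAP2. Within it, 6 H3K27me3 intervals were listed. Counting intervals of all 4 modifications, HLA-B lay in a stretch of 2.78 Mb with 119 protein-coding starts, the most in any of the 58530 stretches between listed intervals. PSMB8, PSMB9, TAP1 and TAPBP lay in a stretch of 838 kb with 37 starts, and 7 stretches held more.

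PSME1 (ENSG00000092010.15, chr14:24136163-24138967, plus strand) and PSME2 (ENSG00000100911.16, chr14:24143362-24147570, minus strand) encode the subunits of the activator ring that opens the proteasome. They lay in chr14:23698704-24390588, a stretch of 692 kb with the starts of 37 protein-coding genes and no listed interval of any modification. IRF9, a transcription factor of interferon signalling, lay in the same stretch. PSME1 was 253068 bp from the nearest interval, in H3K4me1, and 290725 bp from the nearest H3K27ac interval. PSME2 was 243018 bp and 280675 bp from them. The nearest H3K27ac interval of both, chr14:24428245-24432378, covers starts of CBLN3 and KHNYN and held 289 and 201 counts in DMSO and 246 and 283 in PR-957. This gave a log2 fold change of 0.07 ± 0.13 (SE, n = 2 against 2, edgeR quasi-likelihood, Benjamini-Hochberg adjusted p = 0.959).

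B2M (ENSG00000166710.23, chr15:44711358-44718851, plus strand), the light chain shared by all class I molecules, had the shortest distances after PSMB10 in the 3 active modifications. They were 46130 bp in H3K27ac, 46239 bp in H3K4me1, 46670 bp in H3K4me3 and 375055 bp in H3K27me3. In the 3 active modifications the nearest interval was that of its neighbour SPG11. On the other side no interval was listed up to position 45021523, so that the stretch around B2M measured 356 kb and held 4 protein-coding starts. The SPG11 interval in H3K27ac, chr15:44662221-44665228, held 306 and 234 counts in DMSO and 255 and 404 in PR-957, with a log2 fold change of 0.22 ± 0.12 (SE, n = 2 against 2) that did not pass (edgeR quasi-likelihood, Benjamini-Hochberg adjusted p = 0.695).

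Most of the genes without intervals shared a property of the reference sequence. Build hg38 holds 261 alternate scaffolds, which repeat parts of the chromosomes in another haplotype, and a read that fits both copies has no unique place when both are in the alignment target. The 4 kb around the canonical start was aligned to them. PSMB8, PSMB9 and TAP1 had copies on 7 alternate scaffolds each, TAPBP on 4 and B2M on 1. HLA-B had none at an identity of at least 95%, and its best copy matched at 93.8%. PSMB10, PSME1 and PSME2 had none.

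Across the genome, 655 protein-coding genes had such a copy at their canonical start. In H3K27ac, H3K27me3 and H3K4me1, 0 of the 655 were listed, and in H3K4me3 4 were (0.611%). Of the 19378 genes without a copy, 57.8% were listed in H3K27ac, 18.3% in H3K27me3, 36.6% in H3K4me1 and 63.3% in H3K4me3. The same was measured away from chromosome 6, where 0, 0, 0 and 4 of 489 genes with a copy were listed. In the stretches without intervals, 161 of 183 genes (88.0%) on chromosome 6 and 3 of 4 around B2M had a copy. In the stretch of PSME1 and PSME2 it was 0 of 37, and in a stretch around CANX, a peptide loading gene, 0 of 10. HLA-F and IRF9, which also had no listed interval, had no copy either. The part of the alternate scaffolds in the missing intervals was not tested, since the alignments are not analysed here, and for PSME1 and PSME2 no copy was found.

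**Figure D2:**
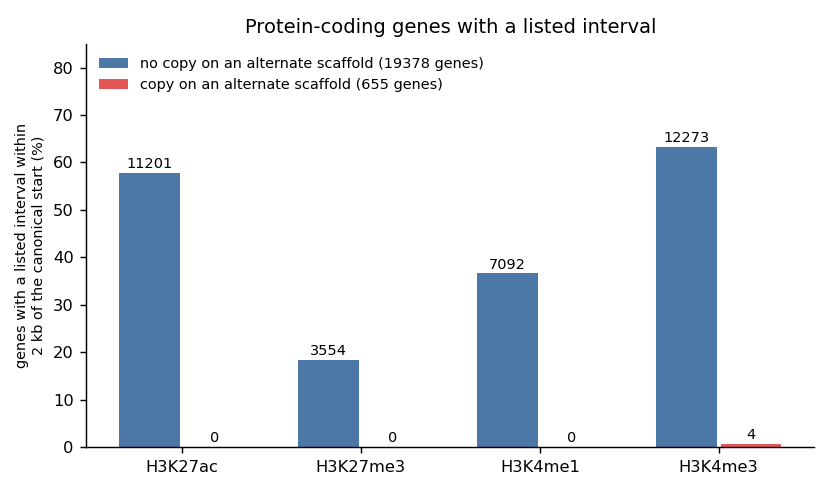
Share of protein-coding genes (%) with a listed interval within 2 kb of the canonical start, for genes with and without a copy of that window on an alternate scaffold. The number on each bar is the count of listed genes: of the 655 genes with a copy, 4 were listed in H3K4me3 and 0 in the other modifications.

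PSMB10 (ENSG00000205220.12) encodes the inducible subunit that takes the place of PSMB7 and spans chr16:67934506-67936864 on the minus strand. All 8 of its listed intervals held the whole promoter window, which is shown here because it is the only one of the 9 promoters with a measured modification. The capitals mark the IRF core, which begins 21 bases before the start.

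PSMB10 promoter, chr16:67936801-67937100, minus strand: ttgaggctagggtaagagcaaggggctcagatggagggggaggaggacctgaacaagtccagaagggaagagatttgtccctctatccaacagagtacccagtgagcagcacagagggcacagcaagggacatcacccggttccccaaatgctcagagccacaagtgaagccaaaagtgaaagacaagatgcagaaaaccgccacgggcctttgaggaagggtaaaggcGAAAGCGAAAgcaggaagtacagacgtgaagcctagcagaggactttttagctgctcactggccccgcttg

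In H3K27ac, PSMB10 was represented by chr16:67932362-67938231 (5869 bp), which held 221 and 169 counts in DMSO and 175 and 248 in PR-957. After TMM scaling these were 16.7 and 17.0 CPM (counts scaled to a common library size) in DMSO and 17.6 and 17.5 in PR-957, means of 16.9 ± 0.221 and 17.5 ± 0.113 (SD, n = 2 each). Both PR-957 libraries were above both DMSO libraries, as the groups did not overlap, but the gap was small beside the error of the fit. The log2 fold change was 0.05 ± 0.15 (SE), a fold of 1.04 with a 95% interval of 0.845 to 1.28 (edgeR quasi-likelihood, Benjamini-Hochberg adjusted p = 0.972). Of all 74510 H3K27ac intervals tested, 36.9% had groups that did not overlap and 0.238% passed the threshold, against 1 and 0 of 1 member here.

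In H3K4me3, PSMB10 was represented by chr16:67933714-67938703 (4989 bp), which held 1052 and 966 counts in DMSO and 755 and 762 in PR-957. The PR-957 libraries had lower total counts over the listed intervals. After scaling the order turned, with 23.5 and 23.2 CPM in DMSO and 24.8 and 25.2 CPM in PR-957. The means were 23.4 ± 0.232 and 25.0 ± 0.269 CPM (SD, n = 2 each), and the groups again did not overlap. The log2 fold change was 0.10 ± 0.08 (SE), a fold of 1.07 with a 95% interval of 0.957 to 1.19 (edgeR quasi-likelihood, Benjamini-Hochberg adjusted p = 0.864). Of the 59229 H3K4me3 intervals tested, 36.6% had groups that did not overlap and 0.226% passed the threshold.

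**Figure D3:**
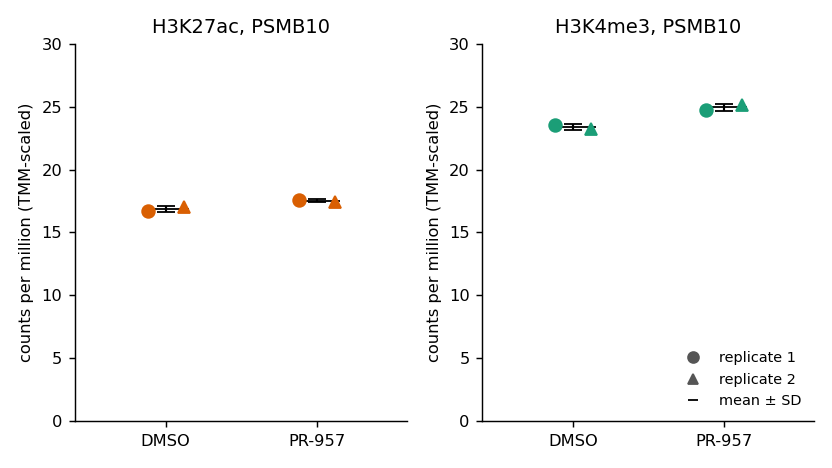
TMM-scaled CPM of the PSMB10 interval in each library, for H3K27ac (left) and H3K4me3 (right), with the mean and SD of 2 libraries as bars. In both modifications the PR-957 libraries lie just above the DMSO libraries, at 17.5 to 17.6 against 16.7 to 17.0 and at 24.8 to 25.2 against 23.2 to 23.5.

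The 4 intervals of each modification at PSMB10 overlap and share most of their counts, so they are not independent measurements. The narrowest H3K27ac interval, chr16:67935347-67937792 (2445 bp), held 68.8% to 84.0% of the counts of the widest over the 4 libraries. It held 152 and 142 counts in DMSO and 147 and 202 in PR-957, with a log2 fold change of 0.18 ± 0.17 (SE, n = 2 against 2, edgeR quasi-likelihood, Benjamini-Hochberg adjusted p = 0.873). The narrowest H3K4me3 interval, chr16:67934337-67937703 (3366 bp), held 97.4% to 99.4% of the counts of the representing one. Its log2 fold change was 0.08 ± 0.08 (adjusted p = 0.890 in the same fit). The intervals of intermediate width had log2 fold changes of 0.08 ± 0.15 and 0.16 ± 0.16 in H3K27ac and of 0.10 ± 0.08 and 0.09 ± 0.08 in H3K4me3. The narrowest H3K4me3 interval reaches from 853 bp upstream to 2513 bp downstream of the canonical start, and the narrowest H3K27ac interval from 942 bp upstream to 1503 bp downstream.

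The wide intervals also hold starts of other transcripts. Both starts of the overlapping gene ENSG00000261884 lie in the representing intervals of both modifications, and 1 of 6 starts of CTRL, a chymotrypsin-like protease gene, lies in the H3K27ac one. Their share of the counts cannot be told apart from that of PSMB10. No H3K4me1 interval was listed in the PSMB10 window, and the nearest, chr16:67916884-67918707, was 17088 bp from the nearest annotated start, with 61 and 62 counts in DMSO and 48 and 46 in PR-957. The log2 fold change there was 0.10 ± 0.30 (SE, n = 2 against 2, edgeR quasi-likelihood, Benjamini-Hochberg adjusted p = 0.903). The nearest H3K27me3 interval, chr16:67535658-67540155 at RIPOR1, was 395640 bp away.

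Within 50 kb of the PSMB10 start, 22 H3K27ac, 10 H3K4me1, 12 H3K4me3 and 0 H3K27me3 intervals were listed. None of them passed the threshold in edgeR's quasi-likelihood test, with a lowest Benjamini-Hochberg adjusted p of 0.709 in H3K27ac, 0.272 in H3K4me1 and 0.864 in H3K4me3. Many of these intervals overlap one another, as those at PSMB10 do, so they are not separate loci or independent measurements. Over the same flanks the genes NRN1L, PSKH1, CTRL, LCAT, SLC12A4 and DPEP3 are annotated.

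**Figure D4:**
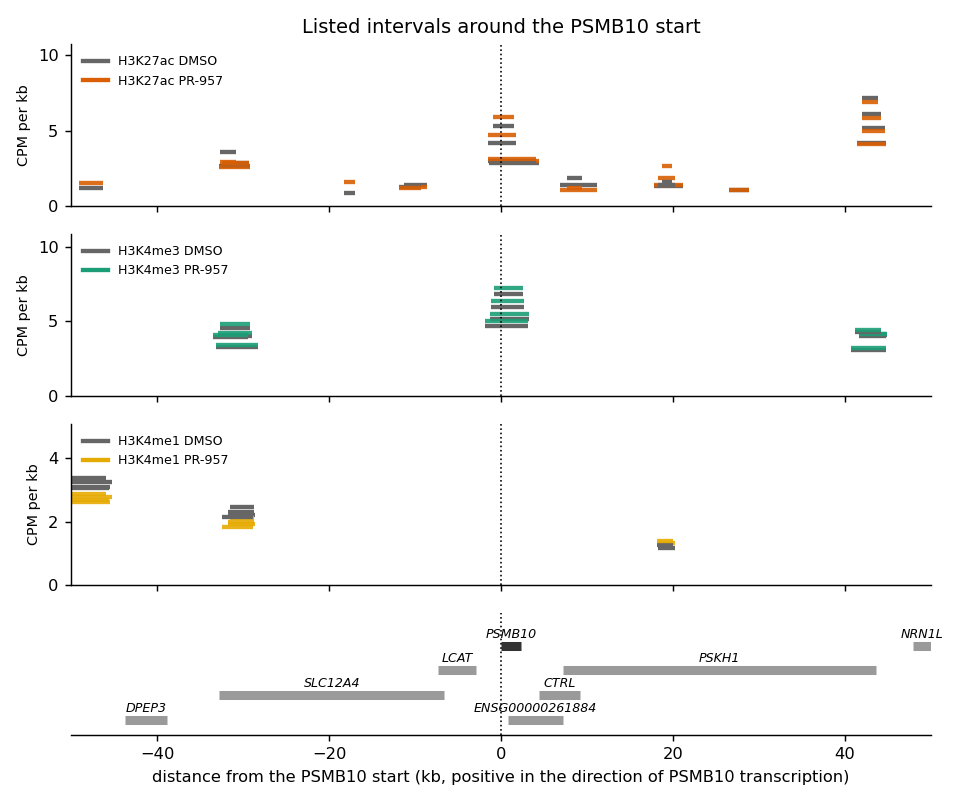
Listed intervals within 50 kb of the PSMB10 start, drawn by their distance from it (kb, positive in the direction of transcription) and by their mean CPM per kb in DMSO (grey) and PR-957 (colour), with the protein-coding genes below. H3K27ac and H3K4me3 intervals sit over the PSMB10 start, and the nearest H3K4me1 interval begins 18143 bp from the canonical start on this axis.

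As a level per length, the representing H3K27ac interval of PSMB10 held 2.88 ± 0.038 CPM per kb in DMSO (SD, n = 2), at percentile 32.2 of the 12094 listed genes. The H3K4me3 interval held 4.68 ± 0.047 CPM per kb, at percentile 51.5 of 12795. The order against the constitutive catalytic subunits, also in CPM per kb of DMSO, differed between the marks. In H3K27ac, PSMB5 held 4.38 ± 0.40, PSMB7 1.303 ± 0.24 and PSMB6 0.420 ± 0.25, so that PSMB10 stood between PSMB5 and PSMB7. In H3K4me3, PSMB5 held 4.19 ± 0.14, PSMB7 2.54 ± 0.02 and PSMB6 1.36 ± 0.18, all below PSMB10. No neighbours in either order had overlapping libraries, and these levels were not tested. They depend on the interval, since the narrowest H3K27ac interval of PSMB10 held 5.28 CPM per kb. No narrower interval of PSMB5 was set beside it, so this value gives no order against PSMB5.

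The genes whose profile was most like that of PSMB10 were sought among 11339 genes with both modifications listed, by Euclidean distance over 8 libraries in log2 CPM per kb. TMC6 and TMC8, which share their intervals, were closest at 0.178, followed by EPB41 at 0.222 and by TMSB10 and TRABD2A, which also share intervals, at 0.225. The median distance over all genes was 2.07. The distance takes in levels and responses in the same libraries and says nothing of function.

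A list of 29 other genes of class I presentation and its regulation was followed in the same fits. In H3K27ac 22 of them were listed, in H3K4me1 16, in H3K4me3 22 and in H3K27me3 0. No gene of the list passed the threshold in any modification, by edgeR's quasi-likelihood test with Benjamini-Hochberg adjustment. DESeq2 called none either, but set an adjusted p for 3 of the 22 listed genes in H3K27ac, 15 of 16 in H3K4me1 and 22 of 22 in H3K4me3. Over all tested intervals the share called was 0.238% in H3K27ac, 1.94% in H3K4me1, 0.226% in H3K4me3 and 5.92% in H3K27me3. At an unadjusted p under 0.05, there were 2 genes of the list in H3K27ac, 0 in H3K4me1 and 1 in H3K4me3. At the same limit, 1155 of 12089 protein-coding genes tested lay in H3K27ac, 1470 of 8702 in H3K4me1 and 1028 of 12795 in H3K4me3. The median log2 fold change of the listed genes was 0.0019 in H3K27ac, -0.013 in H3K4me1 and -0.0082 in H3K4me3, against 0.00053, -0.077 and -0.010 over all protein-coding genes tested. The 7 genes of the list with no interval in any modification were the heavy chains HLA-C, HLA-E, HLA-F and HLA-G, with TAP2, CANX and IRF9. HLA-C lay 2235609 bp and TAP2 669000 bp from the nearest H3K27ac interval.

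**Figure D5:**
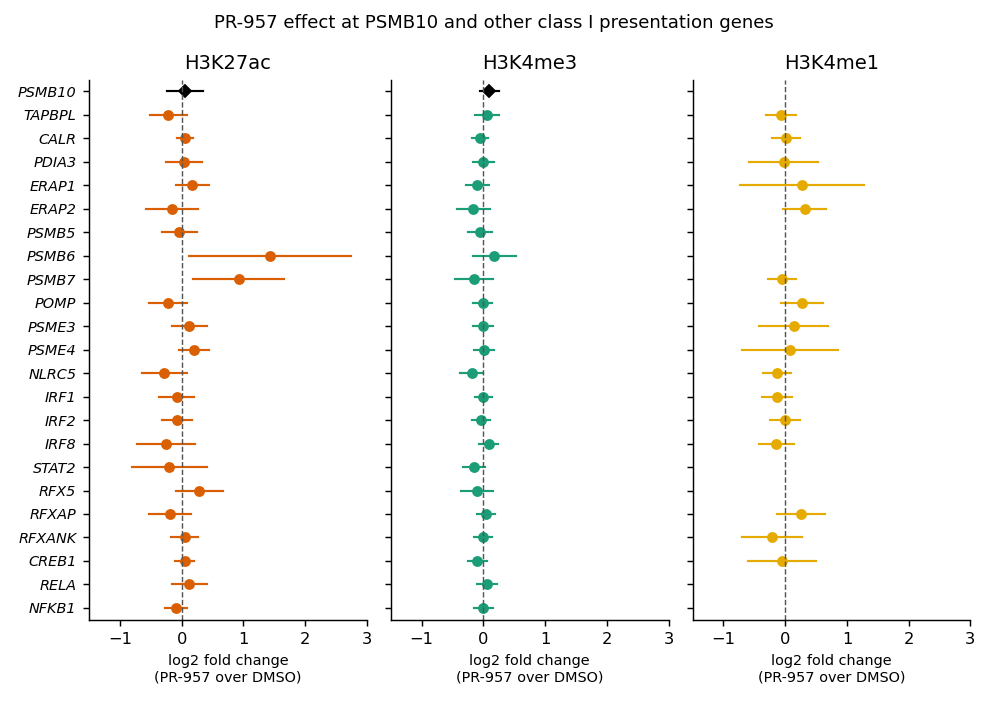
Log2 fold change of PR-957 over DMSO with its 95% interval for PSMB10 (black diamonds) and the other listed class I presentation genes (circles), by modification. The intervals of PSMB10 cross 0 in both modifications. Before adjustment for multiple testing, those of PSMB6 and PSMB7 lie above 0 in H3K27ac and that of NLRC5 lies below 0 in H3K4me3.

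Among the constitutive catalytic subunits, PSMB7, the counterpart of PSMB10, held 31 and 18 H3K27ac counts in DMSO and 37 and 60 in PR-957. These were 2.35 and 1.81 CPM in DMSO and 3.72 and 4.22 CPM in PR-957, so that the groups did not overlap. The same held for 6 of the 22 listed genes of the list and for 36.9% of all H3K27ac intervals tested. The PSMB7 log2 fold change of 0.92 ± 0.38 (SE, n = 2 against 2) did not pass after adjustment (edgeR quasi-likelihood, Benjamini-Hochberg adjusted p = 0.444). PSMB6, the counterpart of PSMB9, held 13 and 4 counts in DMSO and 13 and 36 in PR-957, or 0.984 and 0.403 CPM against 1.31 and 2.53 CPM. Its log2 fold change of 1.43 ± 0.67 rests on these low counts and did not pass either (adjusted p = 0.557 in the same fit). With loess offsets the value was 0.96, and leaving out DMSO replicate 1 gave 2.25 while leaving out PR-957 replicate 2 gave 0.84. PSMB5, the counterpart of PSMB8 and the main target of clinical proteasome inhibitors, held 234 and 200 counts in DMSO and 170 and 276 in PR-957, with a log2 fold change of -0.04 ± 0.15 (adjusted p = 0.982). In H3K4me3 the same 3 genes had log2 fold changes of -0.15 ± 0.16, 0.18 ± 0.18 and -0.06 ± 0.10 in this order, with adjusted p-values of 0.901, 0.896 and 0.944.

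Of the regulators, NLRC5, the transactivator of class I genes, held 777 and 644 H3K4me3 counts in DMSO and 412 and 462 in PR-957, or 17.4 and 15.5 CPM against 13.5 and 15.3 CPM. The groups did not overlap, as for 7 of the 22 listed genes of the list and 36.6% of all H3K4me3 intervals tested. The NLRC5 log2 fold change was -0.19 ± 0.09 (SE, n = 2 against 2, edgeR quasi-likelihood, Benjamini-Hochberg adjusted p = 0.643). IRF1, the interferon-induced factor that binds the IRF element, had an H3K4me3 log2 fold change of -0.0025 ± 0.069 (adjusted p = 0.999 in the same fit). In H3K27ac, the log2 fold changes were -0.28 ± 0.18 for NLRC5 and -0.08 ± 0.14 for IRF1, with adjusted p-values of 0.764 and 0.952. The H3K27ac interval that represents NLRC5 lies at a start other than the canonical one, and its log2 fold change was -0.09 at the canonical start and -0.04 in the interval with the highest count per kb. It was -0.03 without DMSO replicate 1 and -0.47 without DMSO replicate 2.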

How the data were processed

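Cut&Tag was measured in MOLM-13 cells for H3K27ac, H3K27me3, H3K4me1 and H3K4me3, with 2 libraries per treatment and modification. The deposited files hold raw counts, which the authors made by counting reads or fragments on one interval list per modification, with no normalization. Per the submitters' processing notes the tools were Trimmomatic 0.39, Bowtie2 2.2.5, Picard 2.27.1, SAMtools 1.7, SEACR 1.3 and deepTools 3.5.1, with build hg38. Not given in the sources used here are the counting tool, the handling of duplicates and of reads that align more than once, and whether the alignment target held alternate scaffolds. The time of 72 h is that of the sample labels, while a legend in the paper's supplement gives another time.

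In edgeR 4.0.16 (R 4.3.3), low intervals were removed with filterByExpr at a minimum count of 10, libraries were scaled by TMM, and PR-957 was compared with DMSO within each modification by the quasi-likelihood test, at a false discovery rate of 0.05 (Benjamini-Hochberg) over all intervals tested. The labels do not say whether replicates were separate cultures, so p-values measure the spread between these libraries, which may be technical. An exact permutation test on 2 libraries per group could give no p below 0.333. The SE is the log2 fold change divided by the root of F, and 95% intervals use the test's degrees of freedom. The script was tested on simulated data. Intervals were assigned to transcript starts of GENCODE release 44 in Python 3.11.15, with coordinates given as listed.

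The members and lists were chosen with earlier results of these data known. The 9 members are all given by name. From a list of 29 other genes of class I presentation, PSMB5, PSMB6, PSMB7, TAP2, HLA-C, NLRC5 and IRF1 are named whatever their values. From the same list, HLA-E, HLA-F, HLA-G, CANX and IRF9 are named because they had no interval. NFKB1, CREB1 and IRF8 are named after their values were seen. Some other genes set in the same list are not reported here. The planned likeness of profiles over 12 libraries in 3 modifications could not be computed, because 0 members had intervals in all of them. It was therefore computed for PSMB10 over 8 libraries of H3K27ac and H3K4me3, as log2 CPM per kb with a prior count of 2, which was decided with the data in view. The other PSMB10 intervals and the search for copies on alternate scaffolds were also added later, with the data in view. Copies were alignments by minimap2 2.31 of at least 90% of the 4-kb window around the canonical start at an identity of at least 95%. The alternatives tried were DESeq2 1.42.0, edgeR with median-of-ratios factors, with library size alone or with cyclic loess offsets, leaving out the count filter, windows of 1 and 5 kb, the interval with the highest count per kb, the canonical start alone, the replicate block and leaving out each library. The 2 IgG samples were not analysed here.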

Additional observations from a re-analysis of the deposited data

How the results depend on the processing

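The 28 alternative fold changes of PSMB10 kept their sign and none passed the threshold, with log2 values of 0.04 to 0.18 in H3K27ac and 0.08 to 0.11 in H3K4me3. Windows of 1 and 5 kb and the canonical start chose the same interval in both modifications, so these settings repeat the main fit and could not change it. Without one library the fold changes were 0.04 to 0.07 and 0.08 to 0.11. The counts of members and of pathway genes past the threshold stayed at 0 under all 70 alternatives, where a gene with no adjusted p was not called. For H3K27me3 and H3K4me1 no member count or percentile could be given, because no member had an interval. DESeq2 set no adjusted p in H3K27ac for PSMB10, PSMB5, PSMB6, PSMB7, NLRC5 and IRF1.

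The H3K27ac percentile of PSMB10 (32.2) was 32.9 with 5 kb windows, 30.2 with the canonical start, 44.8 with the highest count per kb and 32.1 to 33.0 without a DMSO library. The H3K4me3 percentile (51.5) was 59.6 with the highest count per kb and 50.7 to 52.7 without a DMSO library. Signs turned, with no gene past the threshold and the cause not tested, for PSMB5 without DMSO replicate 2 or PR-957 replicate 1 in H3K27ac (-0.14 to 0.052 over the libraries left out) and without PR-957 replicate 1 in H3K4me3 (-0.15 to 0.022). In H3K4me1 they turned for PSMB7 with library size (0.0014) and loess (0.036) and for IRF1 with loess (0.016) and the canonical start (0.025). In H3K4me3 they turned for IRF1 with library size (0.0083), loess (0.022), the highest count per kb (0.015) and without DMSO replicate 2 or PR-957 replicate 1 (-0.041 to 0.037). Another 168 fold changes kept their sign.

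Counts of all intervals called moved more. DESeq2 called 85 against 177 in H3K27ac, 26 against 2097 in H3K4me1 and 34 against 134 in H3K4me3. Without one library the counts were 23 to 89 in H3K27ac, fewest without PR-957 replicate 2, 1168 to 1518 in H3K27me3 (1882 with all), 322 to 1756 in H3K4me1 and 28 to 170 in H3K4me3. Same-numbered libraries deviated together with r = -0.01 in H3K27ac, -0.01 in H3K27me3, 0.01 in H3K4me1 and 0.17 in H3K4me3, over 2 pairs. The replicate block gave PSMB10 log2 fold changes of 0.05 in H3K27ac and 0.10 in H3K4me3, called 0 members, and moved the interval counts to 195, 1324, 1906 and 161.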

Other observations

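The listed genes of the pathway, named here after their values were seen, spanned a wide range of promoter levels in DMSO. NFKB1, an NF-kB subunit gene, held 16.4 ± 0.611 CPM per kb of H3K27ac (SD, n = 2), at percentile 98.3 of the listed genes, and 10.4 ± 0.136 CPM per kb of H3K4me3, at percentile 97.5. CREB1, a factor that binds the CRE, held 11.7 ± 0.130 CPM per kb of H3K27ac, at percentile 94.3. IRF8, a myeloid and B cell factor, held 1.94 ± 0.355 CPM per kb of H3K27ac, at percentile 17.4. Lower still in H3K27ac were PSMB7, at percentile 7.63, and PSMB6, at percentile 0.132, so the PSMB6 interval was near the floor of the listed genes.

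In H3K4me1, NLRC5 and IRF1 were near the top of the listed genes in DMSO, with 4.80 ± 0.244 and 5.55 ± 0.653 CPM per kb (SD, n = 2), at percentiles 97.9 and 99.0. Their H3K4me1 intervals do not hold the canonical start, from which they lie 47076 bp and 19555 bp away. Both genes have 28 annotated starts, and these intervals had the highest count of 24 and 14 listed in their windows. The percentiles therefore rest on a choice among many intervals. The H3K4me1 log2 fold changes were -0.14 ± 0.12 for both (SE, edgeR quasi-likelihood, Benjamini-Hochberg adjusted p = 0.588 and 0.615).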
